A study of Mus musculus with 18 samples.

Results

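The CCR4-NOT complex is the main cytoplasmic machine that shortens the poly(A) tails of mRNAs. The genes described here are its subunits, chosen by symbol, with no threshold on their values: Cnot1, Cnot2, Cnot3, Cnot6, Cnot6l, Cnot7, Cnot8, Cnot9, Cnot10 and Cnot11, 10 of the 27874 genes in the expression table. All 10 passed the filter on low values and were among the 10320 genes tested. Their levels were measured in mouse oocytes of wild-type (WT) and Lsm14b-/- (KO) females at the germinal vesicle stage (GV, the prophase arrest before maturation), at the first meiotic metaphase (MI) and 14 h after injection of hCG, the hormone that triggers ovulation. The submitters denote the last time as MII, and the same name is used here for both genotypes, although the labels do not state which meiotic stage the KO oocytes had reached by then. LSM14B is an RNA-binding protein of the particles in which oocytes store untranslated mRNA. Each of the 6 groups had 3 libraries of 15 pooled oocytes. The labels do not give the age or strain of the mice, the design of the Lsm14b allele, or whether the replicates came from separate animals, so p-values measure the spread between these samples, which may be technical.

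CNOT1 is the scaffold on which the other subunits assemble. The complex holds a pair of nucleases, of which the CAF1 type is encoded by Cnot7 or Cnot8 and the CCR4 type by Cnot6 or Cnot6l. CNOT2 and CNOT3 form the NOT module, CNOT9 is a docking surface for adaptor proteins, and CNOT10 and CNOT11 form a module at the N-terminal end of CNOT1. A fully grown oocyte makes little new RNA, so its mRNA content through maturation is set largely by storage, tail length and decay, and tail shortening by CCR4-NOT is a known step in the clearance of maternal mRNA. In mouse oocytes, Cnot7 and Cnot6l are known as dormant maternal mRNAs that are translated during maturation.

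The libraries were primed with an oligo(dT) primer, which anneals to poly(A) tails. For this reason the 3′ ends of 4 members are shown, namely the CAF1-type pair, the CCR4-type gene with the higher level, and Cnot3. Each sequence is a stretch of 30 bases near an annotated 3′ end, written 5′ to 3′ along the mRNA with T for U, from the GENCODE vM21 transcripts (build GRCm38). Capitals mark a poly(A) signal (AATAAA) and, where present, a cytoplasmic polyadenylation element (CPE, here TTTTAT or TTTTAAT), the motif bound by CPEB proteins.

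Cnot7-211: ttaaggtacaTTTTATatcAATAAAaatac

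Cnot7-201: aaagcttttgtaAATAAAggcttcaaaaat

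Cnot8-202: tatgtTTTTAATtttgtaaAATAAAgattg

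Cnot3-201: atttatgAATAAAtagTTTTATatgacggc

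Cnot6l-210: ttccctgtaggcAATAAAtggccattttgc

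The Cnot7-211 stretch lies at chr8:40493036-40493065 (minus strand), and that of Cnot7-201, which ends farther downstream and has no CPE match, at chr8:40492550-40492579 (minus strand). The other stretches lie at chr11:58118552-58118581 (plus strand, Cnot8), chr7:3661075-3661104 (plus strand, Cnot3) and chr5:96070340-96070369 (minus strand, Cnot6l). All 5 are in 3′ UTRs. In the transcript chosen for each member, the last 100 bases held a CPE match in 4 of 10 members (Cnot1, Cnot3, Cnot7 and Cnot8) and none in the other 6. Among 8018 tested genes with a long enough 3′ UTR, 20.8% held a match in the same window, and 77.95% held AATAAA or ATTAAA in the last 40 bases. Only the mRNA strand was searched, and no base was shared between a printed CPE and a printed signal. The Cnot8 transcript is annotated as incomplete at its end, the annotated ends may not be those used in oocytes, and a match is not evidence of a working site.

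Values are FPKM (fragments scaled to transcript length and to the reads of the library) as deposited. The library totals implied by the FPKM of 1 read ranged from 14227762 to 17183679 reads, and the 10 members held from 46 reads (Cnot6) to 17532 reads (Cnot6l) in a library. Lsm14b itself averaged 2.30, 7.08 and 9.34 FPKM in WT at GV, MI and MII, against 0.116, 0.124 and 0.113 FPKM in KO. KO GV replicates 2 and 3 stood apart: the SD over genes of their deviations from the group mean was 0.522 and 0.476 on the log2 scale, against 0.185 to 0.327 in the other 16 libraries. Of 11 oocyte markers, 10 or 11 averaged at least 1 FPKM in each group. The summed level of 14 cumulus and granulosa cell markers was 7.99 to 10.2 FPKM in KO GV and 4.76 to 7.84 FPKM in WT GV, without overlap. Of these markers 4 averaged at least 1 FPKM in KO GV and 2 in WT GV, and Ptx3 and Tnfaip6 were at 0 in every GV library. In the other groups the sum was 3.81 to 8.99 FPKM, with overlap between WT and KO at each stage and Foxl2 at 0 in every library. The sum of 12 markers of theca, stroma, endothelium and blood was 4.42 to 5.57 FPKM in KO GV and 2.86 to 4.01 FPKM in WT GV, without overlap, and 4.04 to 7.53 FPKM in the other groups. The part of these cells in the results below was not tested. Each library held the same number of oocytes, but FPKM is scaled to the reads of the library and is not an amount per oocyte. A lower FPKM can reflect less of an mRNA per oocyte, or more of the other mRNAs in the library. It can also reflect a smaller share of the mRNA with a tail long enough for the primer. These cannot be told apart here, and rises and falls below are changes in FPKM.

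In WT GV oocytes the order of the members by mean FPKM, which is scaled to gene length, was Cnot8 (77.9 ± 1.38, SD, n = 3), Cnot7 (63.6 ± 8.13), Cnot9 (40.0 ± 9.91), Cnot2 (26.4 ± 3.51), Cnot11 (22.1 ± 5.54), Cnot6l (18.8 ± 6.18), Cnot10 (4.15 ± 1.83), Cnot3 (3.99 ± 0.187), Cnot1 (2.84 ± 0.711) and Cnot6 (1.00 ± 0.445). The replicate ranges of Cnot8 and Cnot7 did not overlap, nor did those of Cnot7 and Cnot9. The ranges of Cnot9 and Cnot2 overlapped, as did those of Cnot2, Cnot11 and Cnot6l. The range of Cnot10 overlapped those of Cnot3 and Cnot1, which were apart from each other, and Cnot6 was below all. The length behind these values may exceed that of the mRNA in use: all annotated exons of Cnot1 together cover 17169 bases and its chosen transcript 8364 bases, and those of Cnot3 cover 7129 bases and its chosen transcript 2822 bases. In KO GV oocytes the leading genes by mean were Cnot11 (46.7 ± 22.9 FPKM, n = 3) and Cnot9 (38.4 ± 18.9 FPKM, n = 3), ahead of Cnot8 (34.0 ± 6.01 FPKM, n = 3), with overlapping ranges.

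**Figure D1:**
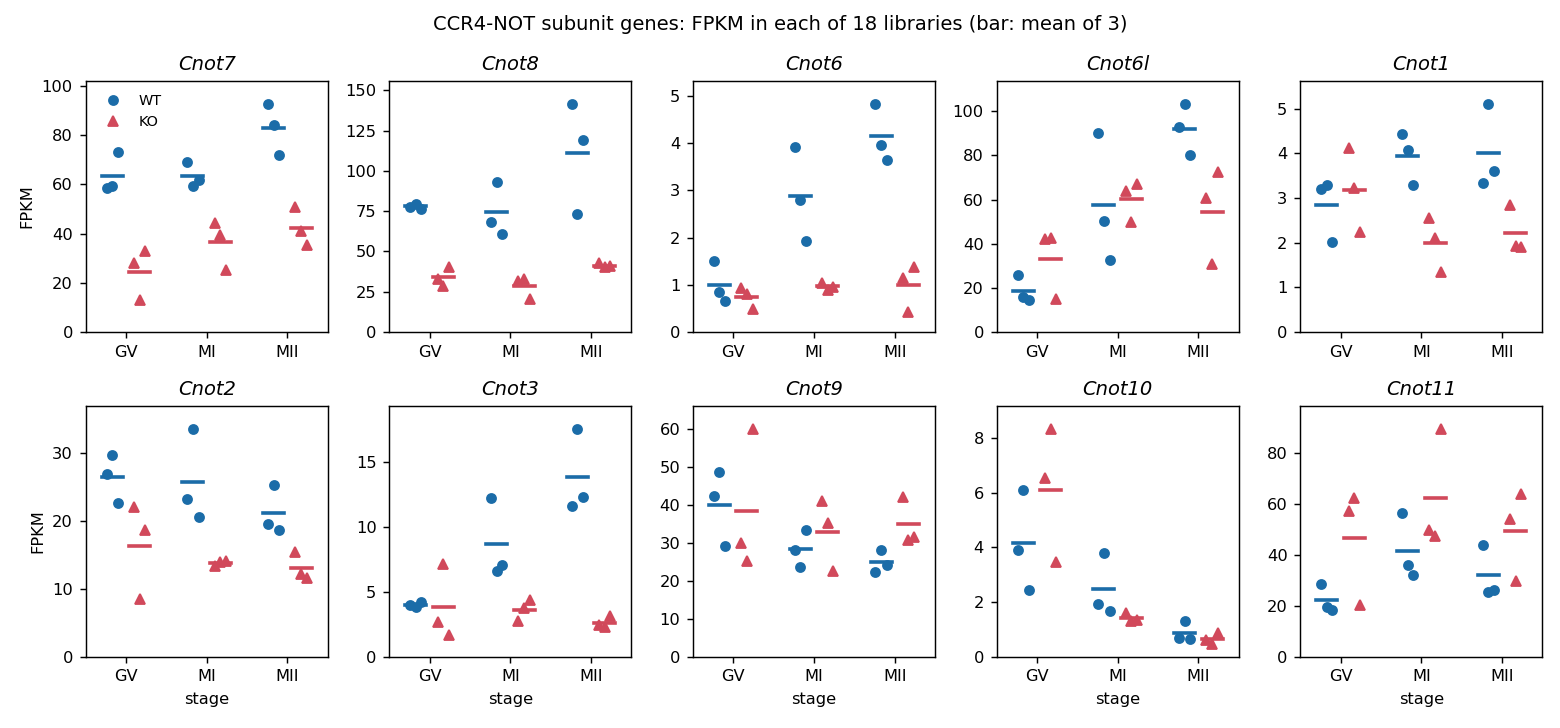
FPKM of the 10 CCR4-NOT subunit genes (vertical axes, linear from 0 and different for each gene) in each of 18 libraries by stage (horizontal axes). Circles are WT libraries, triangles KO libraries, and bars the mean of 3. Every KO value of Cnot7 and Cnot8 lies below every WT value at the same stage, and the WT values of Cnot3, Cnot6 and Cnot6l at MII lie above all WT values at GV.

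The CAF1-type deadenylase genes were lower in KO oocytes from the GV stage on. Cnot8 (ENSMUSG00000020515, chr11:58104153-58118594, plus strand) had 77.8, 79.4 and 76.6 FPKM in WT GV and 33.2, 28.5 and 40.4 FPKM in KO GV. At MI it had 68.4, 93.4 and 61.1 FPKM in WT and 31.7, 33.0 and 20.5 FPKM in KO. At MII it had 141.5, 73.2 and 119.4 FPKM in WT and 42.7, 40.2 and 41.0 FPKM in KO. The genotypes did not overlap at any stage, and the highest KO value of all (42.7 FPKM) was below the lowest WT value of all (61.1 FPKM). The KO mean was 0.437, 0.382 and 0.371 of the WT mean at GV, MI and MII. On the log2(FPKM + 1) scale the difference was -1.19 (SE 0.26, adjusted p 0.00466), -1.36 (SE 0.26, adjusted p 0.00135) and -1.36 (SE 0.26, adjusted p 0.000634) by limma with Benjamini-Hochberg adjustment over the 10320 genes. Cnot8 passed the threshold of 0.05 at all 3 stages under all 29 alternative settings, and without KO GV replicate 2 its difference at GV was -1.07 (adjusted p 0.0182).

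Cnot7 (ENSMUSG00000031601, chr8:40492540-40515847, minus strand) encodes the other CAF1-type nuclease. It had 58.4, 59.4 and 73.0 FPKM in WT GV and 27.9, 13.0 and 32.8 FPKM in KO GV. At MI it had 69.0, 59.3 and 61.8 FPKM in WT and 44.5, 39.6 and 25.3 FPKM in KO, and at MII 92.7, 83.9 and 72.1 FPKM in WT and 50.8, 40.9 and 35.4 FPKM in KO. Again no KO value reached a WT value, and KO GV replicate 2 was the lowest of all 18. The difference was called at GV (-1.43, SE 0.29, adjusted p 0.00293) and at MII (-0.96, SE 0.29, adjusted p 0.0177). At MI it was -0.82 (95% interval -1.42 to -0.21, adjusted p 0.0592), and was called with library weights and without KO GV replicate 2 or KO GV replicate 3. Without KO GV replicate 2 the difference at GV was -1.04 (adjusted p 0.0116). The call at MII was lost without WT MII replicate 1 (adjusted p 0.0662), without KO MII replicate 3 (adjusted p 0.0719) and with median-of-ratios scaling (adjusted p 0.0569), and the call at GV with a fit of the GV groups alone (adjusted p 0.0712).

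Summed over Cnot7 and Cnot8, the CAF1-type level was 141.5 ± 7.09, 137.7 ± 14.9 and 194.3 ± 38.6 FPKM (SD, n = 3) in WT at GV, MI and MII, against 58.6 ± 16.1, 64.9 ± 16.6 and 83.7 ± 8.80 FPKM in KO. The highest KO library of all had 93.5 FPKM and the lowest WT library 123 FPKM. Cnot7 made up 44.8% ± 3.43 of this sum in WT GV and 40.6% ± 8.10 in KO GV, with overlapping ranges. At MI its share was 46.4% ± 6.57 in WT and 56.1% ± 2.01 in KO, without overlap, the KO mean being 0.575 of WT for Cnot7 and 0.382 for Cnot8. At MII it was 43.5% ± 8.60 in WT and 50.4% ± 3.99 in KO, with overlap.

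The CCR4-type deadenylase genes were not called different between the genotypes at GV, and both were called higher at MII than at GV in WT. Cnot6 (ENSMUSG00000020362, chr11:49671503-49712723, minus strand) was the least abundant member in WT GV. It had 1.50, 0.858 and 0.649 FPKM in WT GV, 3.92, 2.80 and 1.94 FPKM in WT MI and 4.83, 3.95 and 3.65 FPKM in WT MII. In KO it had 0.940, 0.799 and 0.482 FPKM at GV, 1.04, 0.898 and 0.962 FPKM at MI and 1.15, 0.430 and 1.39 FPKM at MII. From GV to MII the WT mean became 4.13 times as high while the highest KO value at any stage was 1.39 FPKM. The KO level was called lower at MI (-0.95, SE 0.24, adjusted p 0.00915) and at MII (-1.40, SE 0.24, adjusted p 0.000214), and not at GV (-0.19, 95% interval -0.68 to 0.30). The added 1 FPKM lowers fold changes of a gene this low: with 0.1 FPKM added, the difference at MII was -2.08 (adjusted p 0.000667), and with 5 FPKM added -0.61 (adjusted p 0.000123). Without WT MI replicate 1 the call at MI was lost (adjusted p 0.0505).

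Cnot6l (ENSMUSG00000034724, chr5:96070333-96164171, minus strand) encodes the other CCR4-type nuclease and made up 95.0% ± 0.624 of the summed level of the pair in WT GV and 98.3% ± 0.283 in KO MII. It had 25.9, 16.0 and 14.6 FPKM in WT GV, 90.0, 50.2 and 32.5 FPKM in WT MI and 92.8, 103.3 and 80.2 FPKM in WT MII. In KO it had 42.0, 42.8 and 15.1 FPKM at GV, 64.0, 49.9 and 67.0 FPKM at MI and 60.6, 30.7 and 72.3 FPKM at MII. At GV the first KO libraries were above every WT library and KO GV replicate 3 was within the WT range, whereas at MII every KO library was below every WT library. From GV to MI the Cnot6l mean went from 33.3 to 60.3 FPKM in KO, without overlap (0.96, 95% interval 0.12 to 1.81, adjusted p 0.127), a change that was called with median-of-ratios scaling. None of the differences between KO and WT was called: 0.70 (95% interval -0.14 to 1.54) at GV, 0.18 (-0.67 to 1.02) at MI and -0.82 (-1.67 to 0.02) at MII, with adjusted p 0.207, 0.812 and 0.136. Without KO GV replicate 3 Cnot6l was called higher at GV (1.18, adjusted p 0.0191).

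The summed CCR4-type level was 19.8 ± 6.63, 60.5 ± 30.5 and 96.3 ± 11.8 FPKM (SD, n = 3) in WT and 34.0 ± 16.0, 61.3 ± 9.16 and 55.5 ± 21.9 FPKM in KO at GV, MI and MII. Its ratio to the CAF1-type sum in WT was 0.141 ± 0.0528 at GV and 0.513 ± 0.148 at MII, with no overlap. In KO the ratio was 0.656 ± 0.421 at GV, 1.01 ± 0.414 at MI and 0.669 ± 0.290 at MII. At GV the lowest KO ratio (0.213, KO GV replicate 3) was just above the highest WT ratio (0.201), at MI the groups did not overlap, and at MII they did.

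**Figure D2:**
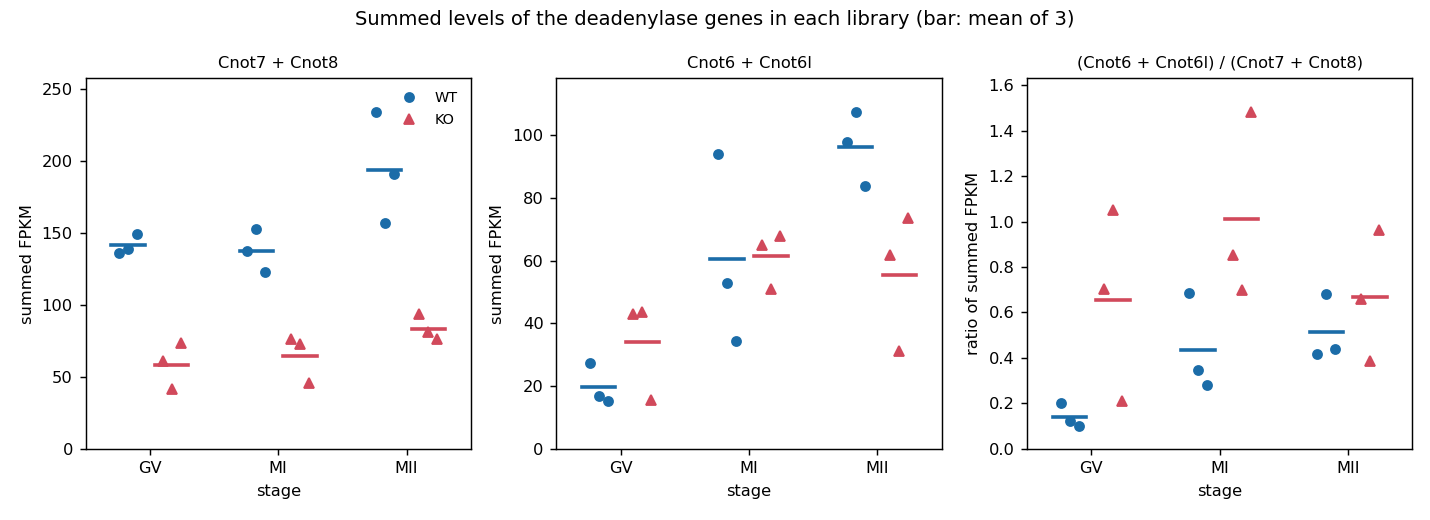
Summed FPKM of the CAF1-type pair Cnot7 and Cnot8 (left) and of the CCR4-type pair Cnot6 and Cnot6l (centre), and the ratio of the second sum to the first (right), by stage in each library. Circles are WT libraries, triangles KO libraries, and bars the mean of 3. The CAF1-type sums of WT (123 FPKM and above) and KO (93.5 FPKM and below) are apart at every stage, while the CCR4-type sums overlap at GV and MI.

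Of the NOT module, Cnot3 (ENSMUSG00000035632, chr7:3645268-3661109, plus strand) followed Cnot6. It had 3.97, 3.81 and 4.18 FPKM in WT GV, 12.2, 6.61 and 7.06 FPKM in WT MI and 11.6, 17.6 and 12.3 FPKM in WT MII. In KO it had 2.69, 7.10 and 1.65 FPKM at GV, 2.73, 3.72 and 4.35 FPKM at MI and 2.45, 2.29 and 3.11 FPKM at MII. At MI and MII all KO values were below all WT values of the stage, and at GV the KO libraries lay on either side of WT, with replicate 2 the highest. The KO level at MII was 0.189 of WT (-2.02, SE 0.32, adjusted p 0.000128), the lowest such ratio among the 10 members at any stage. At MI the difference was -1.04 (SE 0.32, adjusted p 0.0324), a call that was lost without WT MI replicate 1 (adjusted p 0.142), KO MI replicate 1 (adjusted p 0.122) or KO MI replicate 2 (adjusted p 0.0682). At GV it was -0.21 (95% interval -0.89 to 0.46).

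Cnot2, which pairs with CNOT3 in the NOT module, had 26.9, 29.7 and 22.7 FPKM in WT GV and 22.1, 8.44 and 18.6 FPKM in KO GV. At MI it had 23.2, 33.6 and 20.6 FPKM in WT and 13.3, 14.0 and 14.0 FPKM in KO, and at MII 19.6, 25.4 and 18.7 FPKM in WT and 15.4, 12.2 and 11.6 FPKM in KO. Every KO value was below every WT value of its stage, yet no difference was called: -0.75 (adjusted p 0.0645), -0.83 (adjusted p 0.0505) and -0.65 (adjusted p 0.0929). The call at GV was gained without KO GV replicate 1 (adjusted p 0.0370) or replicate 3 (adjusted p 0.0289), and with median-of-ratios scaling. That at MI was gained with a pseudocount of 5, the 5 FPKM filter, only the groups compared or library weights. It was also gained without any KO GV library or without WT MI replicate 3. That at MII was gained with only the groups compared, with library weights and without KO GV replicate 2. The scaffold gene Cnot1 had 3.21, 3.29 and 2.02 FPKM in WT GV and 4.12, 3.22 and 2.23 FPKM in KO GV. It had 4.43, 4.08 and 3.28 FPKM in WT MI against 2.56, 2.10 and 1.34 FPKM in KO MI, and 3.34, 5.11 and 3.61 FPKM in WT MII against 2.84, 1.93 and 1.91 FPKM in KO MII. The groups overlapped at GV and not at MI or MII. The difference at MI (-0.73, SE 0.24, adjusted p 0.0425) was just past the threshold and was lost under 14 of 28 alternatives. The difference at MII was -0.63 (adjusted p 0.0560). It was called with median-of-ratios scaling, quantile normalization, TPM scaling, a replicate block, library weights and voom. It was also called without KO GV replicate 2, KO GV replicate 3 or KO MI replicate 3.

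The remaining subunits were not called between the genotypes at any stage. Cnot9 ranged from 22.4 to 48.5 FPKM in WT and from 22.6 to 60.0 FPKM in KO, and its differences were -0.13, 0.18 and 0.46 at GV, MI and MII. At MII every KO value of Cnot9 (30.8 to 42.1 FPKM) was above every WT value (22.4 to 28.1 FPKM), with an adjusted p of 0.277. Cnot11, whose product is the partner of CNOT10, alone among the 10 had positive differences at all 3 stages, with overlapping ranges at each: 0.92 (95% interval 0.09 to 1.75, adjusted p 0.0976), 0.56 (adjusted p 0.363) and 0.59 (adjusted p 0.291). It had 28.5, 19.6 and 18.4 FPKM in WT GV and 57.5, 62.3 and 20.4 FPKM in KO GV, so that KO GV replicate 3 was again the library within the WT range. Without that library Cnot11 was called higher at GV (1.42, adjusted p 0.00477), as was Cnot10 (0.77, adjusted p 0.0421). Cnot10 had 3.91, 6.09 and 2.45 FPKM in WT GV and 6.55, 8.35 and 3.45 FPKM in KO GV, and with all libraries its difference was 0.46 (adjusted p 0.259). The Cnot10 difference was -0.47 at MI (adjusted p 0.298), without overlap, and -0.18 at MII (adjusted p 0.707), with overlap.

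Counted over the complex, 2 of 10 members were called lower in KO at GV (Cnot7, Cnot8), 4 at MI (Cnot1, Cnot3, Cnot6, Cnot8) and 4 at MII (Cnot3, Cnot6, Cnot7, Cnot8), and 0 were called higher at any stage. At an unadjusted p under 0.05, 4, 6 and 6 members passed, of which Cnot11 at GV was higher and the rest lower, beside 3936, 3163 and 4046 of all 10320 genes. The share at GV was thus near that of all genes. Of all genes tested, 7.49% were called lower and 13.3% higher at GV, 13.7% lower and 3.63% higher at MI, and 13.8% lower and 14.9% higher at MII. The median difference of the members was -0.16, -0.77 and -0.74, beside 0.17, -0.13 and 0.01 over all genes. Median-of-ratios scaling turned the split of all genes at GV from 1373 higher and 773 lower to 1087 higher and 1445 lower, and that at MI from 375 and 1411 to 874 and 1154. Under this scaling the median of all genes at GV was -0.04, and Cnot7 and Cnot8 differed there by -1.71 (adjusted p 0.00321) and -1.48 (adjusted p 0.00130). Quantile normalization gave 1380 and 1347 genes at GV and 1068 and 1192 at MI. A fit of the GV groups alone called 92 of all genes higher and 210 lower, and Cnot8 was then the only member called. Without KO GV replicate 3 the count at GV was 6 (Cnot2, Cnot7 and Cnot8 lower, Cnot6l, Cnot10 and Cnot11 higher), and 3050 of all genes were then called higher and 1080 lower. The count at MI was 1 (Cnot8) without WT MI replicate 1 and 2 (Cnot6, Cnot8) without KO MI replicate 2.

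**Figure D3:**
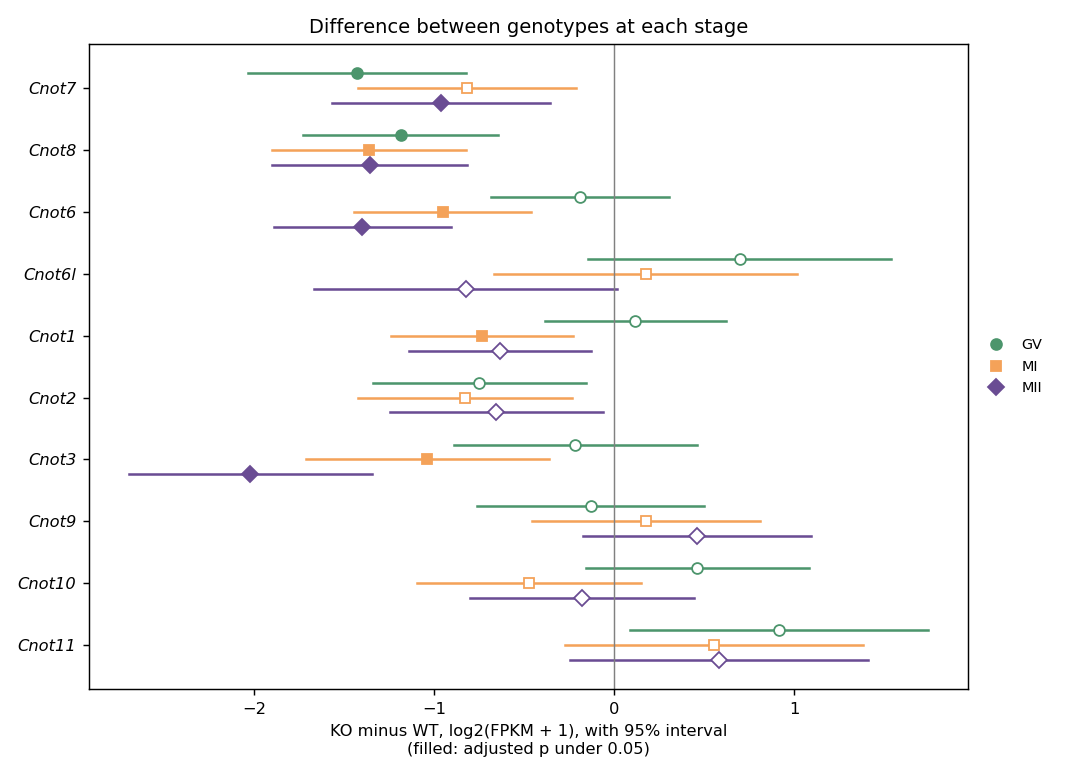
Difference between KO and WT on the log2(FPKM + 1) scale (horizontal axis) for each CCR4-NOT subunit gene (vertical axis), with the 95% interval from the limma fit. Circles are GV, squares MI and diamonds MII, and filled symbols passed an adjusted p of 0.05. Cnot8 is filled at all 3 stages, between -1.36 and -1.19, and Cnot3 at MII lies farthest from 0, at -2.02.

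During maturation of WT oocytes, Cnot3, Cnot6 and Cnot6l rose and Cnot10 fell. From GV to MII the WT mean of Cnot6l became 4.90 times as high (2.27, SE 0.40, adjusted p 0.000127), that of Cnot6 4.13 times as high (1.38, SE 0.24, adjusted p 9.12e-05) and that of Cnot3 3.47 times as high (1.55, SE 0.32, adjusted p 0.000550). For each of these genes the 3 WT MII libraries lay above the 3 WT GV libraries. The 3 called higher of 10 stand beside 28.9% of all genes called higher, and the 1 called lower, Cnot10, beside 28.8% called lower. Under TPM scaling 3747 genes were called higher and 2711 lower, in place of 2982 and 2977, and these 4 members kept their calls in all settings in which they were tested. From GV to MI, Cnot6l (1.49, adjusted p 0.0409) and Cnot6 (0.95, adjusted p 0.0307) were called higher, beside 2.75% of all genes called higher and 2.06% lower. This count of 2 fell to 0 without WT GV replicate 2, WT GV replicate 3, WT MI replicate 1 or WT MI replicate 2. It fell to 1 (Cnot6) without WT GV replicate 1, KO MI replicate 1, KO MI replicate 2, any WT MII library or KO MII replicate 1. With median-of-ratios scaling 151 genes were called higher and 698 lower from GV to MI, and with quantile normalization 272 and 549, in place of 284 and 213.

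Cnot10 fell in both genotypes. WT had 1.92, 3.79 and 1.69 FPKM at MI and 0.690, 1.30 and 0.650 FPKM at MII, after the 2.45 to 6.09 FPKM at GV given above. KO had 1.60, 1.31 and 1.35 FPKM at MI and 0.610, 0.476 and 0.868 FPKM at MII, after 3.45 to 8.35 FPKM at GV. All MII libraries of either genotype were below all its GV libraries. The MII mean was 0.212 of the GV mean in WT (-1.41, SE 0.30, adjusted p 0.000610) and 0.106 of it in KO (-2.05, SE 0.30, adjusted p 2.15e-05). In KO the fall was called at MI already (-1.49, adjusted p 0.00218), while in WT it was -0.56 (adjusted p 0.229) at MI, and the difference between these changes was not called (-0.94, 95% interval -1.81 to -0.06, adjusted p 0.354).

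In KO oocytes Cnot10 was the only member called from GV to MI, and Cnot10 and Cnot7 (0.84, SE 0.29, adjusted p 0.0280, higher) were those called from GV to MII. Of all genes, 2.53% were called higher and 10.4% lower from GV to MI in KO, and 11.9% higher and 25.4% lower from GV to MII. With median-of-ratios scaling the latter split, 1224 higher and 2618 lower, became 2245 and 2484, and with quantile normalization 3078 and 2105. For GV to MI the split of 261 higher and 1076 lower became 547 and 1121 with the former scaling and 818 and 1076 with the latter. The rise of Cnot7 was not called without KO GV replicate 2 (0.46, adjusted p 0.166), KO MII replicate 1 (adjusted p 0.116) or KO MII replicate 2 (adjusted p 0.0589), so the count at MII was then 1. The count at MI was 2 without KO GV replicate 3, where Cnot7 was called higher as well. Cnot3 changed by -0.26 (95% interval -0.93 to 0.42), Cnot6 by 0.17 (-0.33 to 0.66) and Cnot6l by 0.75 (-0.10 to 1.59) from GV to MII in KO. The change of Cnot6l was called higher with median-of-ratios scaling and with quantile normalization, and that of Cnot6 with quantile normalization.

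Whether the change from GV to MII differed between the genotypes was tested with the interaction term. It was called for Cnot3 (-1.81, SE 0.46, adjusted p 0.0276) and Cnot6 (-1.21, SE 0.33, adjusted p 0.0408). Cnot6 changed by 0.17 in KO against 1.38 in WT, and Cnot3 by -0.26 against 1.55. For Cnot6l, whose WT rise was the largest of the 10, the difference was -1.52 (95% interval -2.71 to -0.33, adjusted p 0.101). Of all genes tested, 1.73% had a called negative and 3.88% a called positive difference, and the 2 members stand against that background. The calls were close to the threshold. The count was 0 without WT GV replicate 2, WT GV replicate 3, WT MII replicate 2, WT MII replicate 3, KO MII replicate 1 or KO MII replicate 2. It was 1 (Cnot6) without WT GV replicate 1, and 1 (Cnot3) without KO GV replicate 1, KO GV replicate 2, KO MI replicate 1, KO MI replicate 2 or WT MII replicate 1. Without KO GV replicate 3 it was 4, with Cnot1 and Cnot6l (adjusted p 0.00943) added, and 2028 of all genes then had a called negative difference, in place of 179. For the change from GV to MI the difference was called for 0 members by limma, beside 0.0678% of all genes called lower and 0.00969% called higher. At an unadjusted p under 0.05, 3 members passed (Cnot1, Cnot6 and Cnot10), beside 1383 of the 10320 genes.

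**Figure D4:**
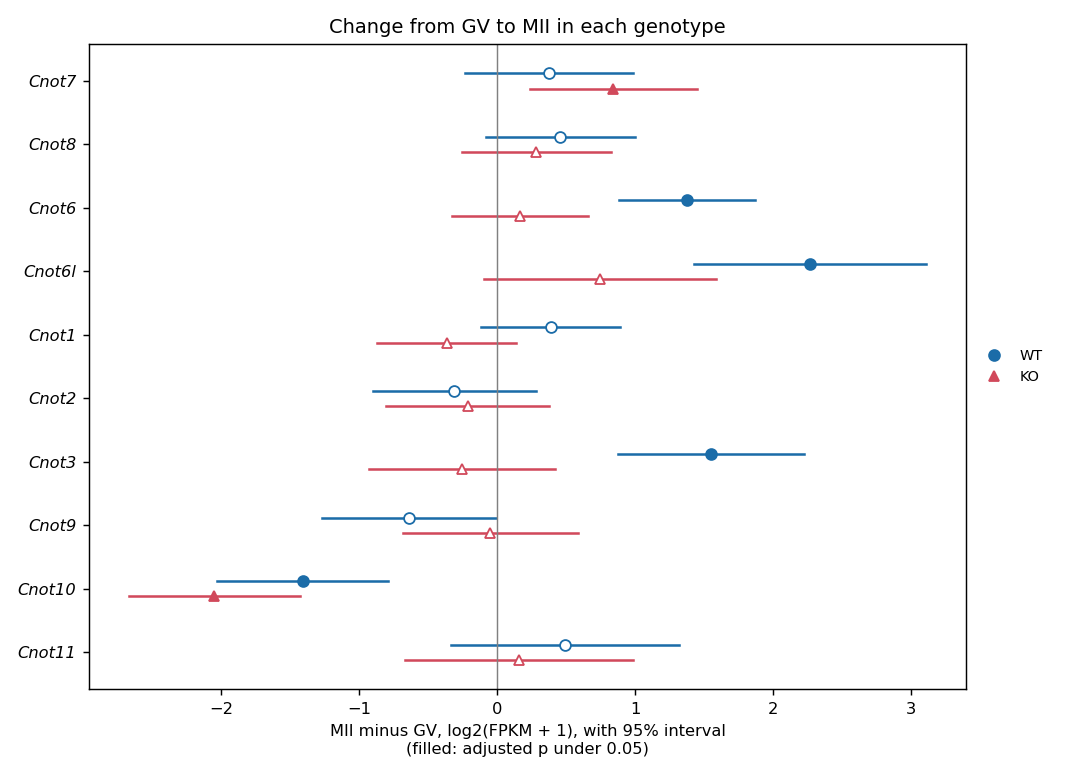
Change from GV to MII on the log2(FPKM + 1) scale (horizontal axis) for each CCR4-NOT subunit gene (vertical axis) in WT (circles) and KO (triangles), with the 95% interval from the limma fit. Filled symbols passed an adjusted p of 0.05. Cnot3, Cnot6 and Cnot6l are filled in WT, at 1.55, 1.38 and 2.27, and open in KO, while Cnot10 is filled in both.

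The genes around CCR4-NOT were followed with 4 lists, which are described by counts, medians and called genes, without a test of a list as a whole. Adaptor proteins bring the complex to chosen mRNAs, and 20 of 27 such genes were tested. In KO against WT, 7 were higher and 1 lower at GV, 0 and 2 at MI, and 2 and 2 at MII, with a median of 0.96, 0.28 and 0.09. Of all genes, 13.3%, 3.63% and 14.9% were called higher at these stages and 7.49%, 13.7% and 13.8% lower. Btg4, which encodes the adaptor that links the CAF1-type nucleases to maternal mRNAs, was lower at all 3 stages (-1.88, -0.88 and -1.27, with adjusted p 4.46e-05, 0.0141 and 0.000483). Ythdf2, the gene of an m6A reader that recruits CCR4-NOT, was higher at GV (1.06, adjusted p 0.0127) and at MII (1.04, adjusted p 0.00761). The medians over all genes at these stages are given above. In WT, 11 of 20 adaptor genes were called higher and 0 lower from GV to MII, beside the 28.9% and 28.8% of all genes, among them Rc3h1 (1.31), Tnrc6b (1.39), Bicc1 (0.88) and Pum2 (1.76). The WT mean of Bicc1 was low, at 0.522 FPKM at GV and 1.84 FPKM at MII. In KO, 2 adaptor genes were higher (Btg4, 1.35, and Btg2, 1.70) and 1 lower (Zfp36l2, -0.81, from 1.47 to 0.295 FPKM). Of all genes in KO, 11.9% were called higher and 25.4% lower from GV to MII. Btg4 and Btg2 were called higher in WT as well (0.74 and 0.78), named there for comparison with KO. For the difference between the genotypes in the change from GV to MII, 0 of the 20 tested adaptor genes were called, with a median of -0.73. Of all genes, 3.88% were called higher and 1.73% lower in that comparison.

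The next list held 9 genes for deadenylases outside CCR4-NOT and for related proteins, and not every product is an established deadenylase. Among the 8 tested, 0 were higher in KO and 1, 2 and 3 were lower at GV, MI and MII, beside 7.49%, 13.7% and 13.8% of all genes called lower. Angel2 was lower at each stage (-0.93, -1.21 and -0.91), Noct at MI and MII (-1.67 and -2.28, adjusted p 0.00389 and 0.000126) and Pan3, whose product is the partner of the PAN2 nuclease, at MII (-0.82, adjusted p 0.0161). The list's medians were -0.04, -0.13 and -0.18. In WT, Pan3, Noct, Angel2 and Pan2 rose from GV to MII (1.36, 1.74, 1.05 and 1.08) and Pnldc1 fell (-2.28), beside 28.9% of all genes called higher and 28.8% lower.

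After deadenylation an mRNA can lose its cap and be degraded from the 5′ end. Of 16 genes for these steps 14 were tested, and in KO 3, 2 and 5 were higher and 1, 2 and 3 lower at GV, MI and MII. Their medians were 0.40, -0.15 and 0.48. Of all genes, 13.3%, 3.63% and 14.9% were called higher and 7.49%, 13.7% and 13.8% lower. Dcp1a, for a cofactor of the decapping enzyme, was lower at all stages (-1.66, -1.48 and -1.47), Dcp2, for the enzyme itself, at MI and MII (-1.26 and -1.19), and Xrn1, for the 5′ exonuclease, at MII (-0.70, adjusted p 0.00510). Ddx6, for a helicase that binds both repressors and decapping factors, was higher at GV and MI (1.30 and 1.01), and Patl2 at GV and MII (1.82 and 2.90). Of the ring-forming LSM genes, Lsm5 was higher at GV (1.08), Lsm3 at MI and MII (0.90 and 1.78), and Lsm2, Lsm6 and Lsm4 at MII (0.84, 0.90 and 1.08), Lsm4 being named after its value was seen. The Lsm4 mean was low, at 0.598 FPKM in WT MII and 2.58 FPKM in KO MII. Of 7 genes for poly(A)-binding proteins, which cover the tails that CCR4-NOT shortens, 4 were tested. In KO 1, 1 and 2 were higher and 1, 1 and 1 lower at GV, MI and MII, beside the same shares of all genes, with medians of 0.44, 0.28 and 1.14. Pabpn1l was lower in KO at each stage (-3.69, -3.77 and -3.42) and Pabpc1 higher at each stage (2.16, 2.25 and 1.91), and Pabpc1l was higher at MII (2.08, adjusted p 0.000369). Pabpc1 was low, with WT means of 0.168, 0.827 and 0.372 FPKM at GV, MI and MII. Its KO means were 5.22 ± 4.01 (SD, n = 3), 7.38 and 4.65 FPKM. The KO change minus the WT change from GV to MII was called for Lsm3 (1.87, limma, adjusted p 0.00597) and Pabpc1l (1.83, limma, adjusted p 0.0477). Of all genes, 3.88% were called higher and 1.73% lower in that comparison.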

How the data were processed

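The deposited table gives FPKM values per gene and library, normalized by the authors to gene length and to reads per library. Libraries were made by the SMART-seq2 method with oligo(dT) priming, per the labels' protocols. The submitters' processing notes name mm10 and DESeq2 1.38.3. Not given in the sources used here are the aligner, the counter and whether strand was used, so reads of overlapping genes cannot be told apart: 0.769% to 7.28% of the exon bases of Cnot1, Cnot2, Cnot3, Cnot7 and Cnot9 are shared with another gene, and 0 of the other members.

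Gene identifiers were matched to GENCODE vM21 (27829 of 27874). Values were multiples of a whole read within 0.05 read for 92.8% to 93.3% of nonzero values in each library. Tested were genes at 1 FPKM or above in 3 or more of the 18 libraries, on log2(FPKM + 1) with limma 3.58.1 in R 4.3.3: 6 group means, one residual spread with a mean-variance trend, and Benjamini-Hochberg adjustment over all 10320 genes within each of 9 comparisons, with a threshold of 0.05. The fit was checked on simulated data. The members were taken by name, as subunits of 1 complex, but they and the gene lists were chosen with earlier results of these data known. All 10 members and Lsm14b are named in the comparisons, and of each list the called genes with the smallest p, up to 4 per direction. The 29 alternatives were pseudocounts of 0.1 and 5, no filter, a minimum of 5 FPKM, scaling by TPM, by median of ratios or by quantiles, only the groups compared, a replicate block, library weights, voom on the recovered reads, and leaving out each library. Voom on the recovered reads called 1283 genes higher and 748 lower at GV, 354 and 1343 at MI, and 1677 and 1458 at MII.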

Additional observations from a re-analysis of the deposited data

Results flagged for a closer look

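In the main fit the change from GV to MII was called different between the genotypes, by the test of the difference itself, for 2 members. The call was lost under 8 of 29 alternative settings for Cnot3 and under 15 of 28 for Cnot6. For Cnot3 the KO change minus the WT change was -1.81 on the log2(FPKM + 1) scale (limma, adjusted p 0.0276), the WT mean going from 3.99 to 13.8 FPKM and the KO mean from 3.81 to 2.62 FPKM. For Cnot6 it was -1.21 (limma, adjusted p 0.0408), the WT mean going from 1.00 to 4.14 FPKM and the KO mean from 0.740 to 0.988 FPKM. Results were flagged here by that test alone, and single outlying libraries were not part of the rule. The deviations of KO GV replicates 2 and 3 and the fits without each library are given in the other sections.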

How the results depend on the processing

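Of 90 member results (10 genes in 9 comparisons) 21 were called, 11 of them under every one of the settings in which they were tested: Cnot8 between genotypes at each stage, Cnot3 and Cnot6 between genotypes at MII, Cnot3, Cnot6, Cnot6l and Cnot10 from GV to MII in WT, and Cnot10 from GV to MI and to MII in KO. No called value turned its sign, and of 2592 recomputed values 60 turned theirs while uncalled in both fits. With library weights the number of members called was 6, 8, 4, 8, 4, 4, 1 and 5 for KO against WT at GV and MII, MI against GV and MII against GV in WT, the same in KO, and the genotype difference in the changes to MI and MII. Of all 10320 genes, library weights called 3488 higher and 1783 lower between genotypes at GV, and 2756 and 2323 at MII. In WT the numbers were 1801 and 736 from GV to MI, and 3909 and 3784 to MII. In KO they were 1307 and 2428 to MI, and 1983 and 3365 to MII. For the genotype difference they were 140 and 967 to MI, and 1663 and 2483 to MII. Without a filter the number of members called was 2 for KO against WT at MI, 0 for MI against GV in WT, 1 for MII against GV in KO and 0 for the difference to MII. Of the 27874 genes then tested, 265 were called higher and 1284 lower, 88 and 107, 983 and 3047, and 197 and 71 in these comparisons, in that order. Pseudocount 0.1 gave 0 for MI against GV in WT and 1 for the difference to MII. Of all genes it called 188 higher and 114 lower in the former comparison and 482 and 184 in the latter. The 5 FPKM filter, which removed Cnot1 and Cnot6, gave 1 and 1 for the same comparisons, as did a fit of only the groups compared, which also gave 1 for KO against WT at GV and for MII against GV in KO. Of the 5771 genes left by that filter, 423 were called higher and 225 lower from GV to MI in WT, and 455 and 231 for the difference. A fit of only the groups compared gave 387 and 229, and 321 and 108, of all genes, and 499 and 1933 for MII against GV in KO. Median-of-ratios gave 2 for MI against GV in KO, quantile normalization 4 for MII against GV in KO, and voom 1 for the difference to MII. Voom called 446 of all genes higher and 198 lower for that difference, and the splits of all genes in KO with the former settings are given above. The cause of these moves was not tested, apart from the genes that the filter removed.

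Leaving out 1 library at a time gave 2 to 6 called at GV, 1 to 6 at MI and 3 to 6 at MII between genotypes, 0 to 3 and 4 to 5 from GV to MI and to MII in WT, 1 to 2 for each in KO, and 0 to 0 and 0 to 4 for the differences. With the replicate number as a block the counts were 2, 4 and 5 between genotypes (Cnot1 added at MII), 2 and 4 in WT, 1 and 2 in KO, and 0 and 2 for the differences. Of all genes, the block fit called 1303 higher and 737 lower between genotypes at GV, 354 and 1397 at MI, and 1517 and 1407 at MII. For the difference to MII it called 331 and 112. Deviations of same-numbered libraries correlated at -0.522 to 0.420 (median -0.05, 45 pairs), so the data gave no sign that the numbers pair the samples. Depth limits Cnot6 most, at 46 to 538 reads.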

Other observations

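Over the 18 libraries, the levels of several members moved together. On the log2(FPKM + 1) scale Pearson's r was 0.87 between Cnot3 and Cnot6, 0.84 between the CAF1-type genes Cnot7 and Cnot8, and 0.69 between the CCR4-type genes Cnot6 and Cnot6l. The pair of Cnot6 and Cnot8, of different types, had 0.70, and Cnot6l and Cnot8 had 0.05. Other pairs were negative, such as Cnot3 and Cnot9 (-0.63), Cnot6l and Cnot9 (-0.59) and Cnot8 and Cnot11 (-0.57). The 18 points fall into 6 groups and share library and depth with each other, so these values are descriptions.

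By the same measure, the protein-coding genes with a mean of at least 5 FPKM most like Cnot6 were Cpeb4 (r 0.979), Abhd17b (0.970) and Ice1 (0.970). Those most like Cnot6l were Qser1 (0.990), Taok1 (0.984) and Pcm1 (0.983). Those most like Cnot7 were Tiparp (0.967), Dnajb4 (0.964) and Pex13 (0.956), and those most like Cnot8 were Tmem39a (0.965), Acat1 (0.962) and Plpp5 (0.956). Each was the highest 3 of the 3937 or 3938 genes compared.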
